A study of Mus musculus with 10 samples.

Results

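The MYC, MAX and MXD network was followed at the RNA level in liver tumors of *MYC*/*Twist1*-HCC and *MYC*-HCC mice, as 10 genes picked by their symbols (Myc, Mycn, Mycl, Max, Mxd1, Mxd3, Mxd4, Mxi1, Mnt and Mlx) from a table of 52459 genes. All 10 were found in the table. MYC is a transcription factor that binds DNA only as a dimer with MAX, most strongly at the E-box CACGTG, where it recruits histone acetyltransferases and raises transcription of genes for growth and ribosome synthesis. MXD proteins, MXI1 and MNT compete for the same partner and the same site, and their dimers with MAX bring in SIN3 and histone deacetylases to repress. MLX is a related partner that pairs with the glucose-sensing factors MondoA and ChREBP, and in liver that branch drives glycolytic and lipogenic genes.

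The 5 *MYC*/*Twist1*-HCC came from mice with LAP-tTA, TRE-*MYC* and TRE-*Twist1*/Luc, and the 5 *MYC*-HCC from mice with LAP-tTA and TRE-*MYC*. In both, the liver-enriched LAP promoter drives the tetracycline transactivator tTA, so the transgenes are switched on in hepatocytes once doxycycline is withdrawn from the adult animals, whose final background was FVB/N. Every tumor of either group therefore carried the MYC transgene, and mice were killed at morbidity from tumor burden, at ages that the sources used here do not give. Tumor-free liver was not analysed here, so each comparison asks what differed when Twist1 was added to MYC. The labels do not say that each library is from a different animal, and p-values measure only the spread between these libraries.

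Levels are FPKM, read density scaled by gene length and library depth, so they can be compared between genes. The depth recovered from the values of very short genes was 19.2 to 23.8 M reads per library, and 1 read on a gene model of 1 kb was worth 0.042 to 0.052 FPKM. Twist1 was at 2.56, 26.05, 77.19, 1.62 and 2.21 FPKM in replicates 1 to 5 of *MYC*/*Twist1*-HCC and between 0 and 0.29 FPKM over *MYC*-HCC. Every library therefore matched its label, with very unequal Twist1 levels within *MYC*/*Twist1*-HCC. All 10 hepatocyte markers were above 0 in all 10 libraries, with a summed level of 5207 to 14625 FPKM in *MYC*/*Twist1*-HCC and 2141 to 8753 FPKM in *MYC*-HCC. The *MYC*-HCC columns share 1 heading, so these libraries are numbered in column order. *MYC*-HCC library 4 stood apart from the others, with a limma quality weight of 0.184 against 0.599 to 4.02 for the other libraries, and values that rest on it are also given without it.

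CACGTG stood in the promoter of 4 of the 9 members that have an entry in the RefSeq promoter table (GRCm38.p6, from 250 bases before to 50 bases after the start site). CACGTG reads the same on both strands, so 1 search covers both, and it overlaps no other motif searched. The sites are printed because CACGTG is the sequence for which MYC, MXD and MNT dimers compete. Of all 32851 promoters of this length 7.15% held it, and of the genes tested for expression 12.1%. It was in the promoters of Max, Mnt, Mlx and Mxd4, and not in the windows of Mycn, Mycl, Mxd1, Mxd3 and Mxi1. A match describes these letters only and does not show that a factor is bound. The windows are given 5′ to 3′ on the strand of the gene, with CACGTG in capitals, for Max (chr12:76962246-76962311, minus strand), Mnt (chr11:74830741-74830866, plus strand), Mlx (chr11:101087190-101087289, plus strand) and Mxd4 (chr5:34187864-34187960, minus strand). The motif begins 3 bases before the start site in Max, 123 in Mnt, 40 in Mlx and 219 in Mxd4.
Max: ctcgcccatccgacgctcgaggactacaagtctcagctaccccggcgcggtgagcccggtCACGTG
Mnt: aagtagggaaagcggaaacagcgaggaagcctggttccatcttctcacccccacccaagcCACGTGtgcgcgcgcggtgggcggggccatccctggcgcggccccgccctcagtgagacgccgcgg
Mlx: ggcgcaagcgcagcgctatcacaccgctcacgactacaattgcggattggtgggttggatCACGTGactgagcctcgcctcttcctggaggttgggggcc
Mxd4: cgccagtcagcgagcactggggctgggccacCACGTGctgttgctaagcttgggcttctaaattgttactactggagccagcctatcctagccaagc

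Myc dominated the network in every tumor. Averaged over the 10 libraries, Myc was at 282 ± 62.4 (SD) FPKM and Max, the obligate partner, at 26.6 ± 4.34 FPKM. Mlx followed at 18.2 ± 2.26 FPKM, Mxi1 at 13.2 ± 1.19 FPKM, Mnt at 9.36 ± 2.59 FPKM and Mxd4 at 4.73 ± 1.74 FPKM. Mxd3 at 2.03 ± 0.882 FPKM, Mxd1 at 1.38 ± 0.580 FPKM, Mycl at 0.717 ± 0.361 FPKM and Mycn at 0.068 ± 0.033 FPKM closed the order. The ranges of the libraries overlapped for the neighbours Max and Mlx, Mxi1 and Mnt, Mnt and Mxd4, Mxd3 and Mxd1, and Mxd1 and Mycl, and did not overlap for Myc and Max, Mlx and Mxi1, Mxd4 and Mxd3, or Mycl and Mycn. Of the summed FPKM of the 10 genes, Myc made up 75.0% to 80.9% in *MYC*/*Twist1*-HCC and 74.5% to 82.3% in *MYC*-HCC.

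**Figure D1:**
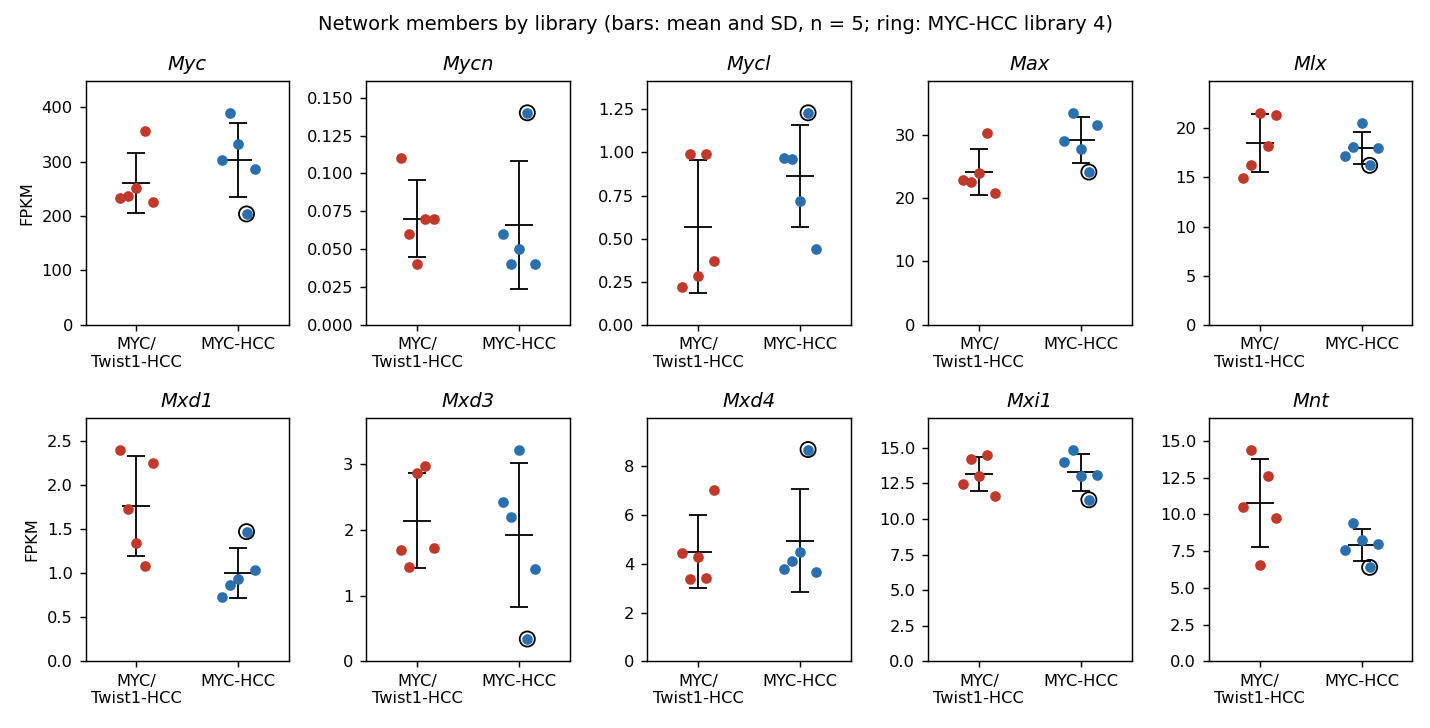
FPKM of the 10 network genes in each library (points), with *MYC*/*Twist1*-HCC on the left and *MYC*-HCC on the right of each panel. Bars are the mean and SD (n = 5), each panel has its own axis from 0, and a ring marks *MYC*-HCC library 4. The groups overlap in all 10 panels, Mxd1 has 3 *MYC*/*Twist1*-HCC libraries above every *MYC*-HCC library and Max has 4 below.

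Of the 9 members that passed the expression filter, 0 passed limma's test between the groups at an adjusted p under 0.05, where 3 of 12146 genes did (0.0247%). At an unadjusted p under 0.05, 1 member passed (Mxd1, higher), where 16.3% of all genes tested did. For 0 of the 9 did the groups fail to overlap, against 4.02% of all genes tested (2.35% higher and 1.67% lower). Differences below are log2 values of FPKM + 0.1, *MYC*/*Twist1*-HCC minus *MYC*-HCC, and their median over all genes was -0.04. Adding a constant understates the differences of the lowest genes.

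The mouse gene Myc lies on chr15:61985391-61990374 of GRCm38. Its level was 233, 237.5, 251.8, 357 and 225 FPKM in replicates 1 to 5 of *MYC*/*Twist1*-HCC, against 303, 390, 332, 204 and 287 FPKM in *MYC*-HCC libraries 1 to 5. Replicate 4 of *MYC*/*Twist1*-HCC was high and library 4 of *MYC*-HCC was low within their groups, and the groups overlapped. The mean was 261 ± 54.7 FPKM in *MYC*/*Twist1*-HCC and 303 ± 68.1 FPKM in *MYC*-HCC (SD, n = 5 each), and Myc was the 61st to 128th most abundant gene in *MYC*/*Twist1*-HCC and the 38th to 145th in *MYC*-HCC. The difference was -0.21 (SE 0.21, 95% interval -0.66 to 0.25, adjusted p = 0.631 from limma, exact permutation p = 0.3175, two-sided). The interval holds differences of either sign, so the direction is not settled here. The sources used here do not give the species of the MYC cDNA, so reads of the transgene and of the mouse gene cannot be told apart, nor is it known how many transgene reads this mouse row holds.

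Pvt1, a long noncoding RNA gene beside Myc, gives a reading of the chromosomal neighbourhood that the transgene does not carry. It was low throughout, at 0.43 to 0.58 FPKM in *MYC*/*Twist1*-HCC and 0.57 to 0.87 FPKM in *MYC*-HCC, with a difference of -0.39 (SE 0.22, adjusted p = 0.396 from limma). Fam84b, a further neighbour, was at 1.29 to 9.78 FPKM in *MYC*/*Twist1*-HCC and 5.82 to 10.5 FPKM in *MYC*-HCC, with a difference of -0.85 (SE 0.45, adjusted p = 0.361). Gsdmc, the other gene listed for the locus, was listed at 0 in all 10 libraries.

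Mycn and Mycl, the paralogs of Myc that are used in neural and other developing tissues, had the lowest means of the 10 members. Mycn was nearly silent and Mycl was low. Mycn (chr12:12936093-12941914) was at 0.11, 0.06, 0.04, 0.07 and 0.07 FPKM in *MYC*/*Twist1*-HCC and 0.06, 0.04, 0.05, 0.14 and 0.04 FPKM in *MYC*-HCC, which is an estimated 2.8 to 9.7 reads per library. It did not pass the filter and was not tested. Mycl (chr4:122995652-123002485) was at 0.22, 0.99, 0.28, 0.99 and 0.37 FPKM in *MYC*/*Twist1*-HCC and 0.97, 0.96, 0.72, 1.23 and 0.44 FPKM in *MYC*-HCC. *MYC*/*Twist1*-HCC fell into 3 libraries below every *MYC*-HCC library and 2 at the level of *MYC*-HCC, and the difference was -0.66 (SE 0.42, 95% interval -1.60 to 0.28, adjusted p = 0.446 from limma).

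Max, the shared partner of the network, was the member whose groups lay furthest to the *MYC*-HCC side for their spread. The gene lies on chr12:76937269-76962201, and it was at 22.9, 22.6, 23.9, 30.3 and 20.8 FPKM in *MYC*/*Twist1*-HCC and 28.9, 33.5, 27.8, 24.1 and 31.6 FPKM in *MYC*-HCC. All *MYC*/*Twist1*-HCC libraries except replicate 4 were below every *MYC*-HCC library. The mean was 24.1 ± 3.66 FPKM in *MYC*/*Twist1*-HCC and 29.2 ± 3.60 FPKM in *MYC*-HCC (SD, n = 5 each), and the difference of -0.28 did not pass the test (SE 0.14, 95% interval -0.59 to 0.03, adjusted p = 0.346 from limma, exact permutation p = 0.0635). The ratio of Myc to Max was 10.2 to 11.8 in *MYC*/*Twist1*-HCC and 8.46 to 12.0 in *MYC*-HCC.

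Mxd1, which encodes a repressor that rises as cells leave the cycle and differentiate, including in granulocytes, had the largest positive difference of the 9. It lies on chr6:86647042-86669161. Its levels were 2.40, 1.73, 1.34, 1.08 and 2.25 FPKM in *MYC*/*Twist1*-HCC, against 0.73, 0.86, 0.93, 1.47 and 1.04 FPKM in *MYC*-HCC. Replicates 1, 2 and 5 of *MYC*/*Twist1*-HCC were above every *MYC*-HCC library, while replicates 3 and 4 were below *MYC*-HCC library 4. The mean was 1.76 ± 0.568 FPKM in *MYC*/*Twist1*-HCC and 1.01 ± 0.283 FPKM in *MYC*-HCC (SD, n = 5 each). The difference was 0.73 (SE 0.27, 95% interval 0.14 to 1.32), with an unadjusted p = 0.0201 and an adjusted p = 0.241 from limma and an exact permutation p = 0.0318. It was 0.86 without *MYC*-HCC library 4 (adjusted p = 0.0593) and 0.998 with limma's library quality weights, where it was called (adjusted p = 0.0195) beside 20.4% of all genes (8.3% called higher). Its adjusted p spanned 0.0195 to 0.449 over all alternatives.

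Mxd1 was higher in libraries with more granulocyte markers, although not for each marker. Their summed level was 695, 108, 64.7, 55.2 and 74.5 FPKM in replicates 1 to 5 of *MYC*/*Twist1*-HCC and 4.77, 2.98, 5.72, 31.4 and 15.4 FPKM in *MYC*-HCC libraries 1 to 5, and S100a9, a calprotectin subunit, was at 6.98 to 292 FPKM in *MYC*/*Twist1*-HCC and 0.9 to 4.94 FPKM in *MYC*-HCC. Lcn2, which other cells can also express, made up 59.9 of the 74.5 FPKM in replicate 5 of *MYC*/*Twist1*-HCC and 22.7 of the 31.4 FPKM in library 4 of *MYC*-HCC. Replicate 5, next to the highest in Mxd1, was the lowest of its group in S100a8, S100a9, Camp, Ngp, Mpo and Elane. Of the 6 markers tested 0 passed limma's adjusted test. Without *MYC*-HCC library 4, 5 of them were called higher, where 4.33% of all genes were. Camp, among these 5, passed the expression filter only through *MYC*/*Twist1*-HCC, so its call is in part set by the filter. The primary granule genes Mpo and Elane were at 0.14 to 15.2 FPKM in *MYC*/*Twist1*-HCC and at 0 to 0.11 FPKM in *MYC*-HCC. Mpo and the receptor gene Cxcr2 were listed at 0 in *MYC*-HCC library 2 and Elane in library 1. On the log2 scale, Pearson's r of Mxd1 with the summed markers was 0.89 over the 10 libraries (Spearman's rho 0.94), 0.77 with group means subtracted and 0.83 over the 8 libraries left without the 2 farthest in marker level. With Lcn2 left out of the sum these were 0.75 (rho 0.84), 0.44 and 0.52. With the summed hepatocyte markers r was 0.88 (rho 0.93). With the summed erythroid markers, at 173 to 2277 FPKM in *MYC*/*Twist1*-HCC and 39.0 to 141 FPKM in *MYC*-HCC, r was 0.67 (rho 0.71), but 0.28 with group means subtracted and 0.35 without the 2 farthest. With the summed cell cycle genes r was -0.74 (rho -0.88). These are descriptions of libraries that differ in cell content, and the part of granulocytes, hepatocytes or erythroid cells in the Mxd1 value was not tested. In bulk tumors, more cells of a type and more RNA per cell cannot be told apart.

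**Figure D2:**
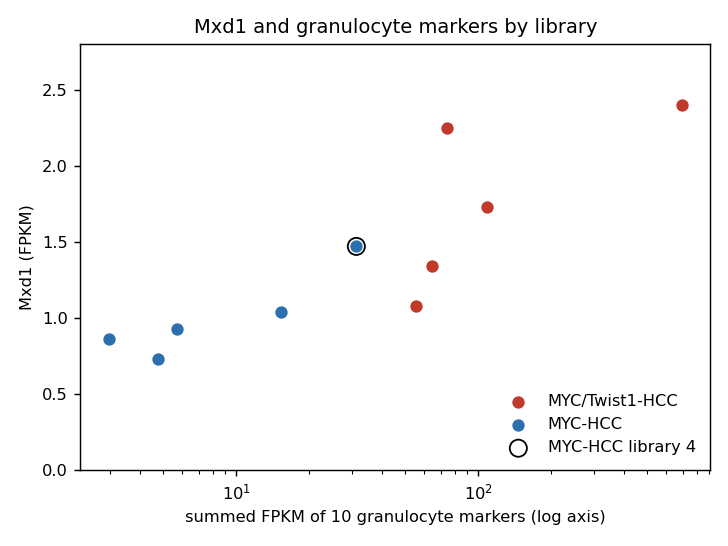
Mxd1 (vertical axis, FPKM) against the summed FPKM of 10 granulocyte markers (horizontal log axis) in each library. *MYC*/*Twist1*-HCC libraries (red) lie at 55.2 to 695 FPKM of markers and *MYC*-HCC libraries (blue) at 2.98 to 31.4 FPKM, and library 4 of *MYC*-HCC (ring) is the highest of its group in both measures.

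Mnt, the most constantly expressed antagonist of MYC in growing cells, lies on chr11:74830920-74845725. It was at 10.5, 14.4, 6.57, 12.6 and 9.76 FPKM in *MYC*/*Twist1*-HCC and 7.61, 9.45, 8.23, 6.40 and 7.99 FPKM in *MYC*-HCC. All *MYC*/*Twist1*-HCC libraries except replicate 3 were above every *MYC*-HCC library. The difference of 0.40 did not pass the test (SE 0.21, 95% interval -0.05 to 0.86, adjusted p = 0.353 from limma, exact permutation p = 0.0952).

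The other repressors did not differ detectably. Mxi1 (chr19:53310518-53375810), the most abundant of them, was at 11.6 to 14.5 FPKM in *MYC*/*Twist1*-HCC and 11.3 to 14.9 FPKM in *MYC*-HCC, and its difference of -0.01 (0.04 with quantile normalization) had the narrowest interval of the 9, from -0.28 to 0.26 (adjusted p = 0.973 from limma). Mxd3 (chr13:55325168-55329823), the family member that is expressed in cycling cells, was at 1.70, 1.44, 2.87, 2.97 and 1.72 FPKM in *MYC*/*Twist1*-HCC, against 2.43, 2.19, 3.22, 0.34 and 1.40 FPKM in *MYC*-HCC. Its difference was 0.37 (SE 0.49, adjusted p = 0.729) and changed sign to -0.11 without *MYC*-HCC library 4, where Mxd3 had an estimated 16.9 reads. Mxd4 (chr5:34173883-34187720) was at 4.44, 3.38, 4.26, 3.41 and 7.02 FPKM in *MYC*/*Twist1*-HCC and 3.78, 4.12, 4.49, 8.68 and 3.68 FPKM in *MYC*-HCC, with a difference of -0.11 (SE 0.27, adjusted p = 0.868) that was 0.11 without library 4. Library 4 thus had the least Mxd3 and the most Mxd4 of all 10 tumors. Mxd3, Mxd4, Mxi1 and Mlx overlap a gene on the opposite strand by 105, 514, 194 and 385 bases, and the sources used here do not say whether counting used the strand.

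As a group, the 5 repressors that pair with MAX (Mxd1, Mxd3, Mxd4, Mxi1 and Mnt) summed to 28.1 to 35.2 FPKM in *MYC*/*Twist1*-HCC and 27.2 to 31.5 FPKM in *MYC*-HCC. Divided by the level of Max, they stood at 1.38, 1.56, 1.18, 1.14 and 1.55 in *MYC*/*Twist1*-HCC, against 0.986, 0.941, 1.08, 1.17 and 0.861 in *MYC*-HCC. Replicate 4 of *MYC*/*Twist1*-HCC was below library 4 of *MYC*-HCC, so the ranges overlapped. Leaving out library 4 gave 0.861 to 1.08 in *MYC*-HCC, against 1.14 to 1.56 in *MYC*/*Twist1*-HCC. Myc exceeded the summed repressors 6.75 to 10.3 times in *MYC*/*Twist1*-HCC and 7.22 to 12.4 times in *MYC*-HCC, which also overlaps. Leaving out library 4 raised the lowest *MYC*-HCC value to 10.55, just above the highest *MYC*/*Twist1*-HCC value of 10.34. Both separations thus rest on dropping the library that overlapped. The share of all genes that separate without library 4 was not determined, and with all libraries it was 4.02%. Both ratios were formed after the values of the members were known. They are given with no test and do not settle whether the groups differ.

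Mlx and its partners did not differ detectably. Mlx (chr11:101087277-101092207) was at 15.0 to 21.6 FPKM in *MYC*/*Twist1*-HCC and 16.2 to 20.5 FPKM in *MYC*-HCC, with a difference of 0.03 (95% interval -0.28 to 0.33, adjusted p = 0.940 from limma). Mlxip, which encodes MondoA, averaged 5.99 ± 1.42 FPKM in *MYC*/*Twist1*-HCC and 5.67 ± 1.74 FPKM in *MYC*-HCC (SD, n = 5 each). Mlxipl, which encodes ChREBP, averaged 21.4 ± 7.11 FPKM in *MYC*/*Twist1*-HCC and 22.8 ± 7.71 FPKM in *MYC*-HCC. The differences of Mlxip and Mlxipl were 0.10 (95% interval -0.44 to 0.65) and -0.11 (-0.75 to 0.54). Mga, a large MAX partner that acts in a Polycomb complex, averaged 6.86 ± 1.29 FPKM in *MYC*/*Twist1*-HCC and 6.81 ± 0.885 FPKM in *MYC*-HCC, with a difference of 0.00 (-0.35 to 0.35).

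**Figure D3:**
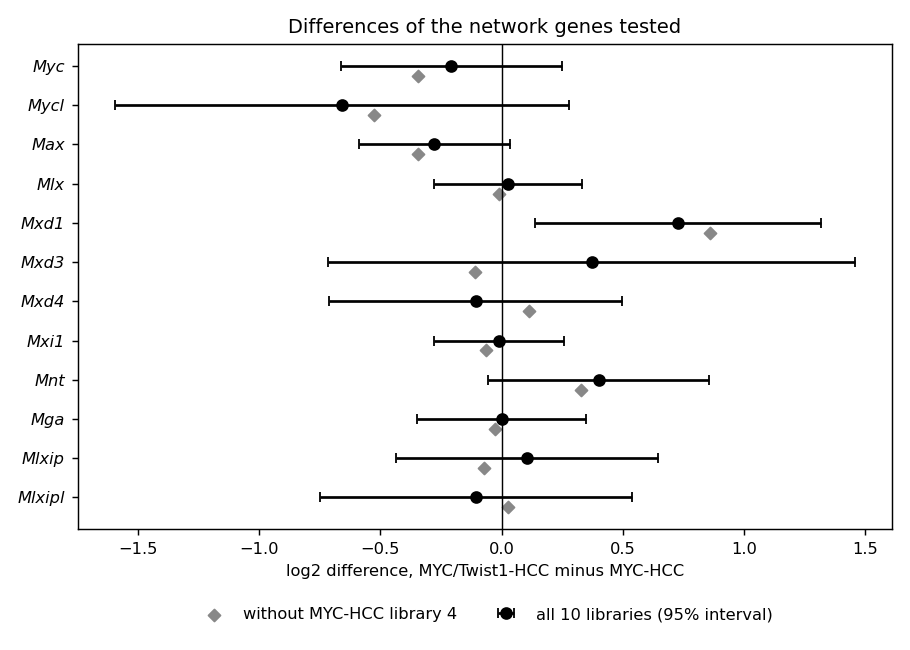
Log2 difference of FPKM + 0.1, *MYC*/*Twist1*-HCC minus *MYC*-HCC, for the 9 members tested and for Mga, Mlxip and Mlxipl. Black points and bars are the limma estimate and its 95% interval over 10 libraries, and grey diamonds are the estimates without *MYC*-HCC library 4. The interval lies to the right of 0 for Mxd1 (0.14 to 1.32) and crosses 0 for the others. Without library 4 the estimates of Mxd3, Mxd4, Mlx, Mga, Mlxip and Mlxipl lie on the other side of 0.

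Across tumors the network genes varied with Myc in different ways. Max was higher where Myc was higher, with Pearson's r = 0.87 on the log2 scale over 10 libraries (Spearman's rho 0.78), 0.89 with group means subtracted and 0.77 without the 2 libraries farthest from the median of Myc. Mxi1 had r = 0.79 (rho 0.84, 0.83 with group means subtracted, 0.61 without those 2), although its own range was narrow. Mxd1 ran the other way, with r = -0.78 (rho -0.79, -0.80 with group means subtracted, -0.79 without those 2). Mxd3 had r = 0.66 (0.82 with group means subtracted, 0.61 when *MYC*-HCC library 4 was also left out) and Mxd4 r = -0.60 (-0.70, and -0.38 without library 4). Mnt and Mlx had r = 0.16 and 0.21 (0.46 and 0.25 with group means subtracted). Of all genes tested, 5.18% had a group-subtracted r with Myc over 0.8, and 109 of the other 12145 genes a higher one than Max. The points share library, depth and hepatocyte content, so these values describe the 10 libraries and carry no p.

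**Figure D4:**
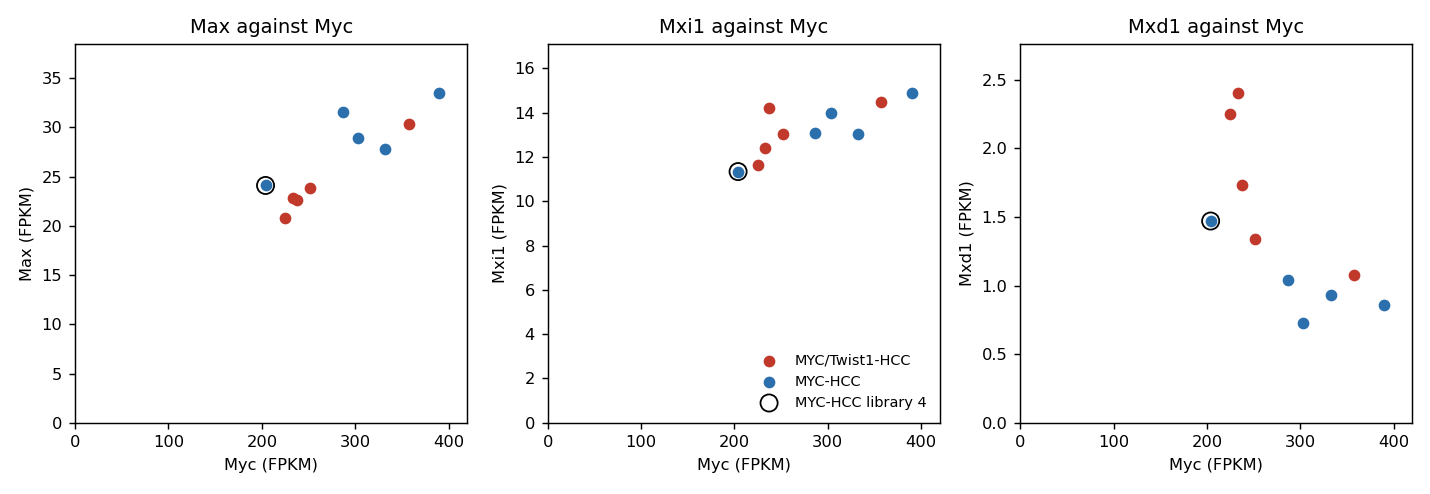
FPKM of Max, Mxi1 and Mxd1 (vertical axes) against FPKM of Myc (horizontal axes) in each library, *MYC*/*Twist1*-HCC in red, *MYC*-HCC in blue, with a ring on *MYC*-HCC library 4. Max and Mxi1 are higher where Myc is higher (r = 0.87 and 0.79 on the log2 scale), and Mxd1 is lower (r = -0.78).

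Within each group, Myc tended to be lower in libraries with a higher sum of hepatocyte markers, although not for each marker. The summed hepatocyte markers were at 11508, 11478, 10164, 5207 and 14625 FPKM in replicates 1 to 5 of *MYC*/*Twist1*-HCC and 4230, 2141, 4035, 8753 and 5593 FPKM in *MYC*-HCC libraries 1 to 5. Replicate 4, with the most Myc of its group, had the lowest sum, and library 4 of *MYC*-HCC, with the least Myc, had the highest. Alb alone was 7147 of the 11478 FPKM in replicate 2 but 1313 of the 5207 FPKM in replicate 4. Replicate 4 was the lowest of its group in Alb, Apoa1, Hnf4a and Fga. Replicate 2 was the lowest in Ttr, Tat, Cps1, Cyp2e1, Ass1 and Pck1. Library 4 of *MYC*-HCC was the highest of its group in each marker except Apoa1, where it was next to the lowest (518 FPKM). Pearson's r of Myc with the sum was -0.89 over the 10 libraries (rho -0.84), -0.97 with group means subtracted, -0.95 without *MYC*-HCC library 4 and -0.83 without the 2 farthest libraries. It was also -0.89 after median-ratio scaling, whose factors were 0.954 to 1.03. Max behaved alike, with r = -0.92. The summed cell cycle genes followed Myc with r = 0.75, at 168 to 304 FPKM in *MYC*/*Twist1*-HCC and 197 to 377 FPKM in *MYC*-HCC. The part of hepatocyte content in the Myc values was not tested.

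The 5 genes most like Myc after subtraction of the group means were Surf2, Surf6, Mex3d, Bcl7a and Srrt, with r of 0.98, 0.98, 0.97, 0.96 and 0.96 over 10 libraries. Surf6 encodes a nucleolar protein and Srrt a factor of RNA processing. Surf2 was at 8.11, 8.74, 9.54, 14.4 and 7.52 FPKM in *MYC*/*Twist1*-HCC and 16.5, 19.6, 15.6, 7.77 and 12.6 FPKM in *MYC*-HCC, high and low in the same libraries as Myc. The choice was not stable, since 1 to 4 of the 5 stayed when a library was left out and 0 when Spearman's rho replaced Pearson's r.

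Of 15 cofactors of MYC, 0 passed after adjustment. An unadjusted p under 0.05 toward *MYC*-HCC was found for 2 of the 15, where 8.51% of all genes had one, and the median difference was -0.26, against -0.04 over all genes. Ruvbl1, an ATPase of the TIP60 and INO80 complexes, was at 8.22 to 17.0 FPKM in *MYC*/*Twist1*-HCC and 11.4 to 27.9 FPKM in *MYC*-HCC, with a difference of -0.69. Zbtb17, which encodes MIZ1, the partner through which MYC represses, differed by -0.44. It was at 2.43 to 3.53 FPKM in *MYC*/*Twist1*-HCC and 3.74 to 5.31 FPKM in *MYC*-HCC. Of the 15 cofactors, 1 (Zbtb17) thus lay lower without overlap, as did 1.67% of all genes tested. Wdr5, which anchors MYC to chromatin, differed by -0.40 and Kat2a, the acetyltransferase GCN5, by -0.48. Without *MYC*-HCC library 4, 2 cofactors (Ruvbl1 and Wdr5) were called lower in limma's adjusted test, where 9.05% of all genes were called (4.33% higher and 4.72% lower).

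Among the corepressors of MXD and MNT, 0 of 10 passed and 2 had an unadjusted p under 0.05 toward *MYC*-HCC, where 8.51% of all genes did. The median was -0.21, or -0.38 without *MYC*-HCC library 4. Hdac2, a histone deacetylase of the SIN3 complex, was at 8.46 to 16.9 FPKM in *MYC*/*Twist1*-HCC and 18.8 to 21.9 FPKM in *MYC*-HCC, with no overlap and a difference of -0.57 (SE 0.18, adjusted p = 0.197 from limma). Of the 10 corepressors, 1 (Hdac2) thus lay lower without overlap, as did 1.67% of all genes tested. Suds3, a SIN3 subunit, differed by -0.42, Sap30 by -0.56 and Sap18 by -0.25. None was called without library 4, where 9.05% of all genes were.

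Of 14 genes that set the stability of MYC protein, 0 passed, 1 had an unadjusted p under 0.05 toward *MYC*-HCC (8.51% of all genes did), and the median was -0.30, or -0.46 without *MYC*-HCC library 4. That gene was Set, an inhibitor of the phosphatase PP2A, which otherwise marks MYC for degradation. Set was at 19.2 to 37.9 FPKM in *MYC*/*Twist1*-HCC and 31.3 to 57.7 FPKM in *MYC*-HCC (difference -0.77, SE 0.22, adjusted p = 0.157 from limma). Cip2a, a further PP2A inhibitor, differed by -0.54 and Pim1, a kinase that stabilises MYC, by 0.70. Usp28, a deubiquitinase of MYC, differed by -0.38. Without library 4, Set and Cip2a were called lower, where 4.72% of all genes were.

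The genes that MYC is known to activate leaned toward *MYC*-HCC, again without passing the test. Of 26 tested, 0 passed after adjustment, 11 had an unadjusted p under 0.05 toward *MYC*-HCC and 0 toward *MYC*/*Twist1*-HCC, where 8.51% and 7.83% of all genes did, and the median was -0.45. Their summed level was 1534 to 2809 FPKM in *MYC*/*Twist1*-HCC and 1922 to 3196 FPKM in *MYC*-HCC, or 3110 to 3196 FPKM without library 4. Apex1, a DNA repair endonuclease, was at 25.9, 30.9, 34, 40.9 and 19.1 FPKM in *MYC*/*Twist1*-HCC and 57.6, 65.6, 73.5, 37.8 and 53.3 FPKM in *MYC*-HCC, with a difference of -0.94 (SE 0.23, adjusted p = 0.136 from limma). Hspd1, the mitochondrial chaperonin, was at 144 to 256 FPKM in *MYC*/*Twist1*-HCC and 277 to 377 FPKM in *MYC*-HCC, with no overlap and a difference of -0.70. Of the 26 targets, 1 (Hspd1) thus lay lower without overlap, as did 1.67% of all genes tested. Odc1, the first enzyme of polyamine synthesis, differed by -0.79, as did Eif4a1, a translation initiation helicase. Without library 4, 6 targets (Apex1, Bop1, Eif4a1, Fbl, Hspd1 and Odc1) were called lower and 0 higher. In that fit 4.72% of all genes were called lower and 4.33% higher. CACGTG was in 8 of the 19 target promoters with an entry, and the median difference was -0.33 for these 8 and -0.43 for the 11 without it. The same libraries that were low in these targets, *MYC*/*Twist1*-HCC replicate 5 and *MYC*-HCC library 4, were low in the cell cycle list within their groups. They were also high in the summed hepatocyte markers, and the part of that in the target levels was not tested.

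Of 10 genes that MYC is known to repress, 8 passed the filter and 0 passed the test, with a median of 0.13. At an unadjusted p under 0.05, 1 was higher and 1 lower, where 7.83% and 8.51% of all genes were. Ndrg1, a stress and differentiation gene, was at 46.7, 28.2, 57.7, 51.5 and 70.1 FPKM in *MYC*/*Twist1*-HCC and 15.99, 15.9, 23.5, 11.9 and 26.5 FPKM in *MYC*-HCC. The groups did not overlap, and the difference was 1.43 (SE 0.28, adjusted p = 0.0904 from limma, with a span of 0.00931 to 0.206 over the alternatives). Of the 8 tested, 1 (Ndrg1) thus lay higher without overlap, as did 2.35% of all genes tested. Gadd45b, a growth arrest gene, went toward *MYC*-HCC by -0.66. Ndrg2 and Cdkn1c, a cyclin-dependent kinase inhibitor, differed by 1.13 and 1.12, or 1.74 and 0.17 without library 4 of *MYC*-HCC, with that library at 420 FPKM of Ndrg2 and 3.51 FPKM of Cdkn1c, outside the range of all other libraries. Without that library Ndrg1 and Ndrg2 were called higher and Gadd45b lower, where 4.33% and 4.72% of all genes were.

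The targets of MLX with MondoA or ChREBP gave 0 of 8 calls. An unadjusted p under 0.05 was found for 0 of the 8, where 16.3% of all genes had one. The median was -0.54, or -0.22 without *MYC*-HCC library 4. That library summed to 471 FPKM over the list, against 107 to 170 FPKM in *MYC*/*Twist1*-HCC and 138 to 212 FPKM in the other *MYC*-HCC. Fasn, the fatty acid synthase, was at 24 to 47.9 FPKM in *MYC*/*Twist1*-HCC and 37.1 to 77.0 FPKM in *MYC*-HCC (difference -0.57, SE 0.26, adjusted p = 0.306 from limma). Txnip, the classic MondoA target, differed by -0.81 (adjusted p = 0.332), Arrdc4, a relative of Txnip, by -0.68 and Acaca, the acetyl-CoA carboxylase, by -0.30. Without library 4 Arrdc4 was called lower, where 4.72% of all genes were.

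**Figure D5:**
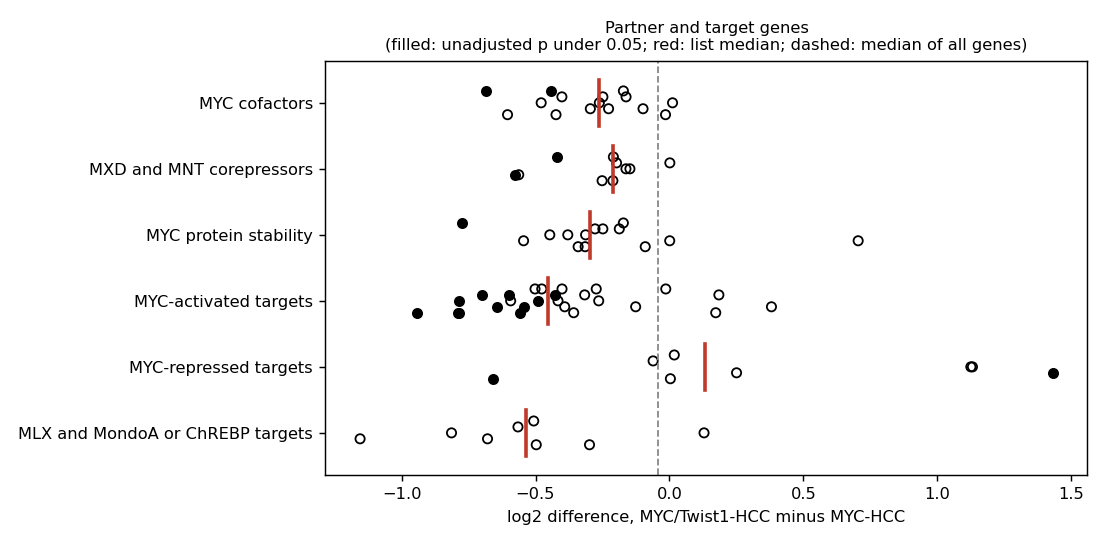
Log2 difference of FPKM + 0.1, *MYC*/*Twist1*-HCC minus *MYC*-HCC, for each gene (circle) of 6 partner and target lists. Filled circles have an unadjusted p under 0.05, red bars are list medians and the dashed line is the median of all genes tested (-0.04). MYC-activated targets have 11 filled circles, all left of 0, and a median of -0.45, and MLX targets have none.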

How the data were processed

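RNA sequencing of 5 *MYC*/*Twist1*-HCC and 5 *MYC*-HCC was used. The authors sequenced single-end reads and deposited FPKM with 2 decimals per gene. Their methods name RSEM, while the submitters' processing notes list Trimmomatic, STAR, Picard, featureCounts, DESeq2 and mm10, without versions. A count table was not used here. Depth was recovered from genes with models under 150 bases (GENCODE vM21, GRCm38), whose values were whole reads within 0.1 read in 99.4% to 100% of cases.

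Groups were compared as log2(FPKM + 0.1) in R 4.3.3 by limma 3.58.1 (2-group linear model, two-sided, variance trend). P-values were adjusted by Benjamini and Hochberg over 12146 genes, those reaching 0.5 FPKM in 5 or more libraries, with a threshold of 0.05. Since the authors' DEseq needs counts, limma stood in for it. Single members also had an exact permutation test over 252 assignments, whose smallest p is 0.0079. The code was tested on simulated data. Python 3.11.15, numpy 2.4.6, pandas 2.3.3 and matplotlib 3.10.9 were used for tables and figures.

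Named are all members, Mga, Mlxip and Mlxipl, up to 4 genes of each partner or target list with the smallest p, the 5 genes most like Myc, Twist1, and up to 3 abundant markers of a cell type list given beside a member. S100a8, Camp, Mpo, Elane, Cxcr2, Bop1, Fbl and Gsdmc were named after their values were seen. So were the hepatocyte markers Tat, Cps1, Hnf4a, Cyp2e1, Ass1, Pck1 and Fga. The members and the lists were chosen with earlier results of these data known. Alternatives were leaving out each library, quality weights, no variance trend, quantile normalization or median-ratio scaling, an added 1 or 0.01, and a filter at a mean of 1 FPKM or none. The cell type lists had 0 genes past limma's adjusted test. At an unadjusted p under 0.05, 7 of 7 erythroid, 6 of 6 granulocyte, 4 of 10 hepatocyte and 1 of 2 lymphocyte genes tested were higher. In the other direction, 1 of 10 cell cycle genes was lower. Of all genes, 7.83% were higher and 8.51% lower at that threshold. There were 0 of 8 macrophage, 6 endothelial, 6 stellate cell and fibroblast, 3 cholangiocyte and 1 dendritic cell genes tested. The lists with few genes tested say little. Without *MYC*-HCC library 4, 5 granulocyte, 6 erythroid and 2 hepatocyte genes were called higher and 2 cell cycle genes lower. In that fit 4.33% of all genes were called higher and 4.72% lower. With quality weights 6 granulocyte, 7 erythroid, 3 hepatocyte, 1 macrophage, 1 lymphocyte and 1 endothelial gene were called higher. There 4 cell cycle genes and 1 cholangiocyte gene were lower, against 8.3% of all genes higher and 12.1% lower. Camp, a granulocyte gene, passed the filter only through *MYC*/*Twist1*-HCC.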

Additional observations from a re-analysis of the deposited data

Results flagged for a closer look

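Of 30 sets of 5 values looked at, 3 held a library far from the other 4 of its group, where chance flags about 1 in 20 sets. Myc was at 357 FPKM in *MYC*/*Twist1*-HCC replicate 4, against 225 to 251.8 FPKM in the other 4. Mxd4 was at 8.68 FPKM in *MYC*-HCC library 4, against 3.68 to 4.49 FPKM in the other 4. Mycn was at 0.14 FPKM in the same library, against 0.04 to 0.06 FPKM, a difference of a few reads.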

How the results depend on the processing

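Of 682 log2 differences of 38 named genes under 18 alternatives, 628 kept their direction and their side of the threshold, 25 changed sign and 29 passed the threshold that they had missed (17 with library quality weights and 12 without *MYC*-HCC library 4). The genes higher numbered 3, and 5 with an added 1, 1 with an added 0.01, and 1008 with quality weights, where 1469 were lower. With 1 library left out they ranged from 1 to 526 higher and 0 to 573 lower, the highest without *MYC*-HCC library 4, and 32 were higher without *MYC*-HCC library 5 and 1 without *MYC*/*Twist1*-HCC replicate 1 or 4. With quality weights, 1 member (Mxd1) was higher, 4 cofactors, 1 corepressor, 5 stability genes, 14 activated targets, 1 repressed target, 1 MLX target and 1 gene of the Myc locus were lower, and 1 stability gene and 2 repressed targets were higher. With 1 library left out, the ranges were 0 to 2 cofactors, 0 to 2 stability genes, 0 to 6 activated targets, 0 to 1 repressed target and 0 to 1 MLX target lower, and 0 to 2 repressed targets higher. All of the highest were without *MYC*-HCC library 4, and the cause was not tested.

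Differences near 0 changed sign. With quality weights Mxd3 was at -0.13, Mxd4 at 0.070, Mlx at -0.058, Mlxip at -0.026 and Mlxipl at 0.070, and Mxi1 was at 0.0066 with median-ratio scaling and 0.039 with quantile normalization. With 1 library left out the ranges were -0.11 to 0.62 for Mxd3, -0.28 to 0.11 for Mxd4, -0.065 to 0.032 for Mxi1, -0.032 to 0.099 for Mlx, -0.091 to 0.083 for Mga, -0.073 to 0.23 for Mlxip and -0.25 to 0.10 for Mlxipl. Of the genes most like Myc, 0 of 5 were shared with Spearman's rho and 1 to 4 with a library left out. The alternatives for the r values of Myc with hepatocyte markers and of Mxd1 with granulocyte markers were chosen after seeing the data. Those of Myc ranged from -0.97 to -0.83. Those of Mxd1 ranged from 0.77 to 0.94 with Lcn2 in the sum and from 0.44 to 0.84 without it.

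No paired analysis was possible because the *MYC*-HCC columns carry no replicate number. With 5 libraries a group, the Myc interval spans -0.66 to 0.25, and the estimated 2.8 to 9.7 reads of Mycn allow no comparison.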
